A study of Mus musculus with 16 samples.

Results

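The genes described here are 10 transcripts of the integrated stress response and the unfolded protein response, namely Atf4, Xbp1, Ddit3, Asns, Trib3, Chac1, Sesn2, Ppp1r15a, Hspa5 and Herpud1. They were taken by gene symbol from the 22287 genes of the deposited table, and all 10 were among the 12514 genes that passed the filter on low counts. Bone marrow of C57BL/6J mice aged 8 weeks, with no genetic change named, was matured for 7 days into bone marrow derived macrophages (BMDMs). The culture held either granulocyte-macrophage colony-stimulating factor (GM-CSF, 20 ng/ml, cells called GM) or macrophage colony-stimulating factor (M-CSF, 50 ng/ml, cells called M). Cells grew on dishes treated for tissue culture (TC) or on untreated dishes (noTC), and received vehicle (steady state) or 100 ng/ml of lipopolysaccharide (LPS), an agonist of Toll-like receptor 4, for 3 h. The 8 groups had 2 RNA-seq libraries each, 16 in all. According to the study's methods, GM cultures were seeded more densely than M cultures and the medium was not changed, so seeding density and growth factor cannot be told apart. No source used here says whether the 2 libraries of a group came from separate animals, and p-values therefore measure only the spread between these libraries.

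The integrated stress response starts when a kinase (PERK, GCN2, PKR or HRI) phosphorylates the translation factor eIF2. General translation then slows, while the mRNA of the transcription factor ATF4 is translated more. ATF4 induces genes of amino acid synthesis, amino acid transport and tRNA charging. The unfolded protein response adds the branches of IRE1, which splices the Xbp1 mRNA, and of ATF6, and both raise chaperones and degradation factors of the endoplasmic reticulum (ER). In macrophages these pathways are known to be engaged by Toll-like receptors and by the load of secreted proteins. Because ATF4 is regulated at translation and XBP1 at splicing, gene-level mRNA counts measure neither the activity of ATF4 nor the spliced form of Xbp1. These are bulk samples, in which fewer cells of a type and less RNA per cell cannot be told apart.

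The deposited libraries held 17527802 to 31458363 counts. Markers of macrophages (8 genes, none at 0) summed to 19543 to 45589 CPM (counts scaled to a common library total), highest in GM and lower after LPS. Markers of heart and skeletal muscle (10 genes) summed to 26.1 to 90.1 CPM in the 4 TC steady state libraries and to at most 1.36 CPM in the other libraries. Sums for fibroblasts were 19.1 to 39.4 CPM in LPS libraries and 1.87 to 7.26 CPM at steady state. Neutrophil and progenitor markers summed to 14.4 to 35.5 CPM in GM and to at most 1.73 CPM in M, and dendritic cell markers to 16.1 to 58.5 CPM in GM and to at most 3.25 CPM in M. Single genes led 3 of these sums. Over all libraries Pdgfrb held 5433 counts and the other fibroblast genes 32 to 450 each. Ccr7 held 5886 counts and the other dendritic cell genes 57 to 868 each. Lyz2 held 10340988 counts and the other macrophage genes 33804 to 645562 each. Whether these sums follow the number of such cells, and the part of these markers in the results, was not tested. A count of 3 in a library, taken as the floor, corresponded to 0.0954 to 0.171 CPM, and of the 10 genes only Chac1 came near it, with 2 to 62 counts per library.

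Promoter sequences are given first because they show which of the genes carry, next to the start site, letters known to be read by the factors of these pathways. A set of 5 motifs was searched on both strands of the windows from 250 bases before to 50 bases after the start of each gene in RefSeq (GRCm38.p6), where all 10 genes have 1 window each. TGATGNAA, the C/EBP-ATF response element read by ATF4 with a C/EBP partner, was found in 4 of the 10 windows and in 3.97% of all 32851 windows. The ER stress response element (CCAAT and CCACG at a fixed spacing), read by ATF6 with NF-Y, stood in 1 of the 10 and in 0.119% of all windows. Its second form (ATTGG and CCACG around a single free base) stood in 1 of the 10 and in 0.0365%. The cAMP response element TGACGTCA was found in 1 of the 10 and in 1.79%, and TGACGTGG, a form read by XBP1 that shares its first letters with the former, in none of the 10 and in 0.676%. A match is a description of letters and not evidence of binding. Capitals mark the matched letters below, which for the C/EBP-ATF elements of Herpud1, Chac1 and Trib3 are the reverse complement, since the match was on the opposite strand, and the coordinates are those of GRCm38.p6.
Hspa5, ER stress response element, chr2:34772019-34772048, plus strand: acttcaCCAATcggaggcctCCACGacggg
Herpud1, C/EBP-ATF element (first) and second form of the ER stress response element (second), chr8:94386306-94386396, plus strand: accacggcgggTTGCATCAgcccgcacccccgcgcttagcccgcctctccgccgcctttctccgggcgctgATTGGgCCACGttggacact
Asns, C/EBP-ATF element, chr6:7693215-7693244, minus strand: gtcccagccacaTGATGAAActtcccgcac
Chac1, C/EBP-ATF element, chr2:119351027-119351086, plus strand: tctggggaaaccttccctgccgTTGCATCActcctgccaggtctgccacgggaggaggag
Trib3, C/EBP-ATF element just after the start, chr2:152344029-152344058, minus strand: attagctcaggtTTACATCAgccgggcggg
Ppp1r15a, cAMP response element, chr7:45526269-45526328, minus strand: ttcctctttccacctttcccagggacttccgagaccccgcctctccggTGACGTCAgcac
The 4 genes with the C/EBP-ATF element did not share 1 pattern of levels. Upon LPS, as described below, Asns rose where Trib3 and Chac1 fell or did not pass the test.

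Levels are given as CPM scaled by library size times the TMM factor, a scaling that assumes that most genes do not differ between libraries. Hspa5, which encodes BiP, the main chaperone of the ER, was the most abundant of the 10 per length, with group means of 188 to 494 CPM per kilobase of exon. Chac1, a glutathione-degrading enzyme, was the least abundant, with 0.111 to 1.02 CPM per kilobase. The spread between groups was also uneven. Group means of Atf4 differed by at most 1.28 times, those of Xbp1 by 1.91 times, while those of Ppp1r15a differed by 13.7 times and those of Asns by 19.4 times.

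Among the genes the results turn on are Asns at chr6:7675169-7693254 (minus strand), Ppp1r15a at chr7:45522916-45526268 (minus strand), Hspa5 at chr2:34771970-34777547 (plus strand) and Sesn2 at chr4:132492032-132510501 (minus strand) of GRCm38 (GENCODE vM21), all protein-coding.

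**Figure D1:**
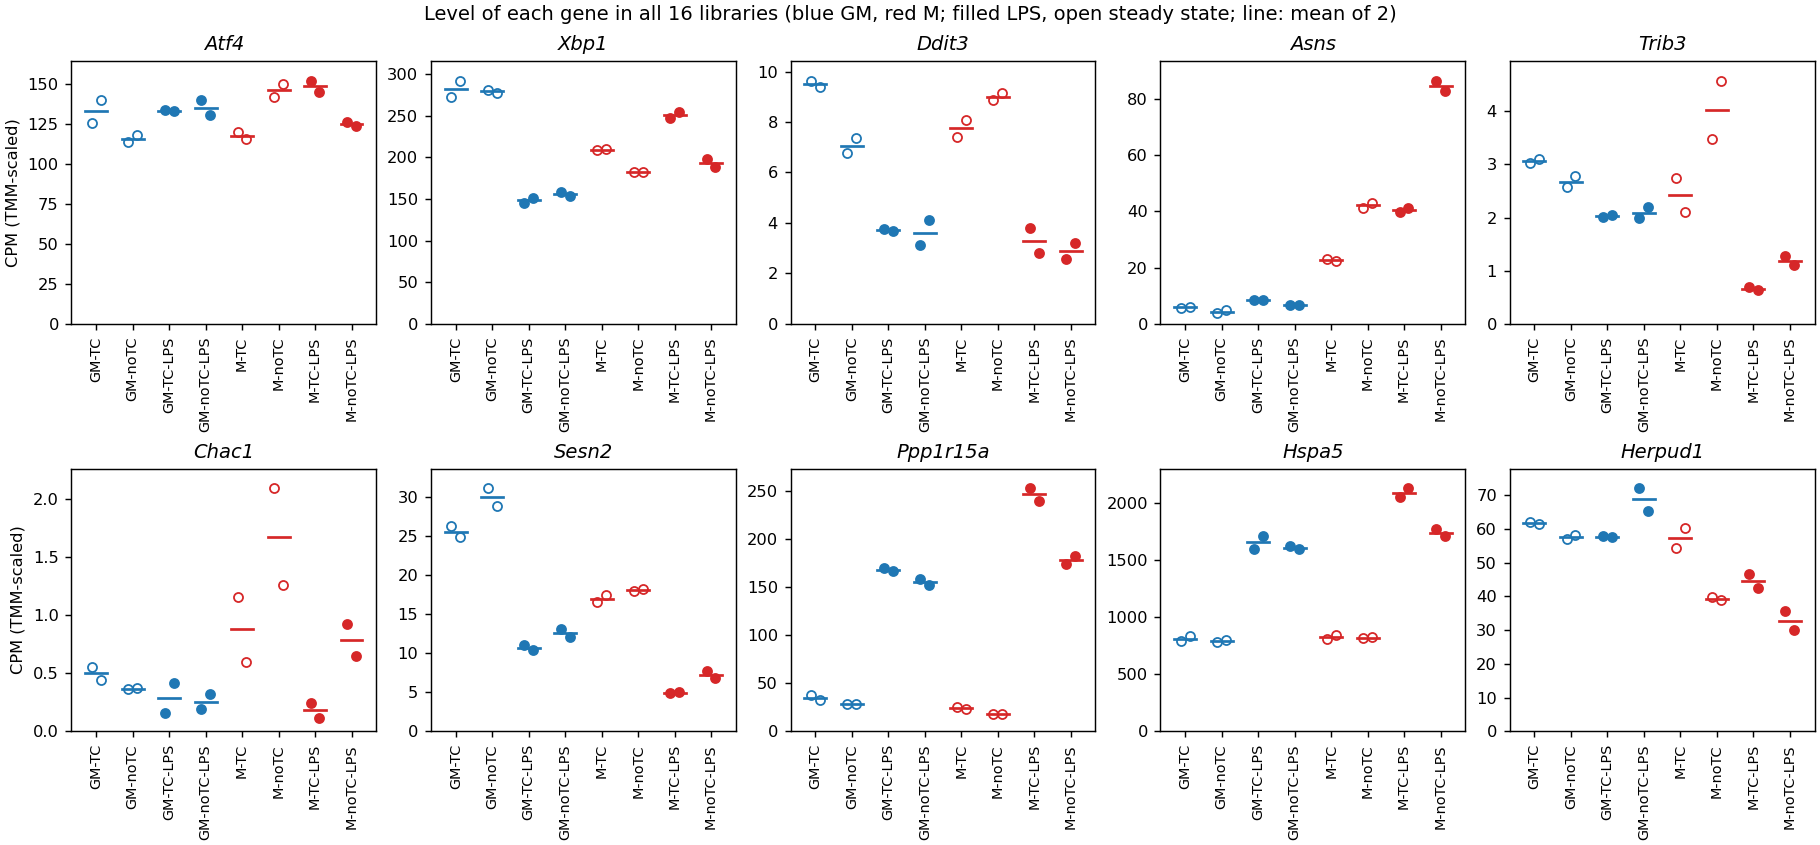
Level of each gene (CPM, linear axis from 0) in the 16 libraries by group, with points for single libraries and a line for the mean of 2. Asns stood at 3.95 to 8.58 CPM in all GM libraries and at 22.4 to 86.6 CPM in all M libraries, and Ppp1r15a and Hspa5 were higher in every LPS library than in any steady state library.

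The first question was how the genes responded to LPS in each culture. Ppp1r15a (GADD34) encodes the subunit that directs a phosphatase to eIF2 and so ends the stress response, and it rose most of the 10. It stood at 37.5 and 32.1 CPM in GM-TC and at 28.6 and 28.5 CPM in GM-noTC, and after LPS at 169 and 167 CPM in GM-TC-LPS and at 158 and 152 CPM in GM-noTC-LPS. In M it went from 25.1 and 22.8 CPM (M-TC) to 252.6 and 239.6 CPM (M-TC-LPS), and from 17.8 and 18.0 CPM (M-noTC) to 174 and 183 CPM (M-noTC-LPS). No steady state library overlapped an LPS library. The log2 fold changes in GM cells were 2.28 ± 0.07 (SE, n = 2 against 2) on TC and 2.44 ± 0.07 on noTC dishes, and in M cells 3.36 ± 0.07 and 3.31 ± 0.07. Adjusted p-values ran from 4.102e-18 for GM-TC to 4.112e-21 for M-TC (edgeR quasi-likelihood test with Benjamini-Hochberg adjustment over the 12514 genes, used for every adjusted p here). The rise was smaller in GM than in M, with a log2 difference of -1.08 ± 0.10 on TC dishes (edgeR interaction, adjusted p = 5.835e-09) and of -0.87 ± 0.10 on noTC dishes (adjusted p = 1.952e-07).

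Hspa5 rose in the 4 cultures. Its 8 steady state libraries lay between 784 and 846 CPM, and its 8 LPS libraries between 1596 and 2127 CPM. Fold changes were 2.04 (GM-TC), 2.03 (GM-noTC), 2.52 (M-TC) and 2.12 (M-noTC), all called (largest edgeR adjusted p = 1.906e-14). With scaling to library size alone its log2 changes were 0.55, 0.51, 0.51 and 0.36 in the same order, all called. Asns, asparagine synthetase, also rose in the 4 cultures, by 1.45 times in GM-TC, 1.53 times in GM-noTC, 1.78 times in M-TC and 2.01 times in M-noTC (largest edgeR adjusted p = 2.193e-04). With scaling to library size alone the rise of Asns was 0.055, 0.11 and 0.0074 on the log2 scale in GM on TC, in GM on noTC and in M on TC dishes and was not called there, and it was called only in M-noTC.

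Other genes went the opposite way. Sesn2 (Sestrin 2), a stress-induced inhibitor of the growth kinase mTORC1, stood at 26.4 and 24.9 CPM in GM-TC, 31.2 and 28.9 CPM in GM-noTC, 16.6 and 17.4 CPM in M-TC and 18.0 and 18.3 CPM in M-noTC. After LPS the libraries held 11.1 and 10.4, 13.1 and 12.1, 4.87 and 4.998, and 7.70 and 6.84 CPM in the same order. Sesn2 therefore fell in each culture without overlap, with log2 changes of -1.25 ± 0.09, -1.25 ± 0.09, -1.78 ± 0.11 and -1.32 ± 0.10. Ddit3 (CHOP), the pro-apoptotic transcription factor of prolonged ER stress, fell from 6.77 to 9.64 CPM over the 8 steady state libraries to 2.57 to 4.11 CPM over the 8 LPS libraries, with log2 changes of -1.35 ± 0.16, -0.96 ± 0.16, -1.22 ± 0.17 and -1.64 ± 0.16. Ddit3 shares 68 bases of exon with Mars, which lies on the opposite strand and encodes the methionyl-tRNA synthetase. Whether reads were counted by strand is not stated, so reads from these shared bases cannot be told apart. The log2 change of Mars (Mars1) upon LPS was -0.49 to -0.24 in the 4 cultures. The directions of Ppp1r15a, Hspa5, Sesn2 and Ddit3 upon LPS, and their calls, held under every alternative fit with the same threshold. The change of Ddit3 in GM-noTC (0.513-fold) did not reach a fold of 2.

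Trib3, a pseudokinase induced by ATF4 and CHOP that binds AKT, fell most in M. It went from 2.75 and 2.10 CPM to 0.689 and 0.639 CPM on TC dishes, a log2 change of -1.85 ± 0.30 (edgeR adjusted p = 7.804e-06). On noTC dishes it went from 3.47 and 4.58 to 1.28 and 1.10 CPM, a change of -1.77 ± 0.24 (adjusted p = 6.546e-07). In GM-TC the change was -0.59 ± 0.23 and was lost in 6 alternatives, among them DESeq2 and leaving out any of the 4 libraries (-0.61 to -0.58 without one of them). In GM-noTC it was -0.35 ± 0.23 and not called by edgeR (adjusted p = 0.1729). With library size alone the GM-noTC value was -0.86 and was called. The LPS change of Trib3 was higher in GM than in M by 1.26 ± 0.39 on TC (edgeR interaction, adjusted p = 0.01191) and by 1.41 ± 0.33 on noTC dishes (adjusted p = 0.001849). The former was not called without M-TC replicate 1 (1.06). Chac1 was also lower in M after LPS, at low counts. M-TC held 29 and 16 counts and M-TC-LPS 5 and 2 (log2 -2.20 ± 0.63, edgeR adjusted p = 0.003385), M-noTC 62 and 54 counts and M-noTC-LPS 18 and 13 (log2 -1.06 ± 0.42, adjusted p = 0.02841). Without M-TC replicate 1 the former was -1.66 and not called. The latter was lost with DESeq2 (adjusted p = 0.1181), without M-noTC replicate 1 (-0.66) and without M-noTC-LPS replicate 2 (-0.83). In GM, where no library held more than 11 counts, Chac1 was not called.

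The changes of Atf4, Xbp1 and Herpud1 were small enough for the scaling to decide their direction. LPS libraries had TMM factors of 0.778 to 0.842 and steady state libraries of 1.11 to 1.39, and scaling to library size alone moved the median of all genes by -0.53 (GM-TC), -0.54 (GM-noTC), -0.83 (M-TC) and -0.73 (M-noTC) on the log2 scale. Atf4 stood at 114 to 152 CPM in every library. Its log2 change upon LPS was 0.00 ± 0.06 in GM-TC (not called), 0.22 ± 0.06 in GM-noTC, 0.34 ± 0.06 for M-TC and -0.23 ± 0.06 for M-noTC, and with library size alone the first 3 were -0.48, -0.29 and -0.49. Xbp1 fell in GM, from 273 and 292 CPM to 145 and 151 CPM on TC dishes and from 281 and 277 CPM to 158 and 153 CPM on noTC dishes (log2 -0.93 ± 0.05 and -0.84 ± 0.05). In M it went from 208 and 209.8 to 247 and 254 CPM on TC dishes (0.26 ± 0.05) and from 182 and 182 to 198 and 188 CPM on noTC dishes (0.08 ± 0.05, not called), and these 2 values were -0.57 and -0.64 with library size alone. The lower response of Xbp1 in GM than in M kept its direction and call under both scalings. It was at -1.19 ± 0.07 on TC (edgeR interaction, adjusted p = 1.196e-11) and -0.93 ± 0.07 on noTC dishes (adjusted p = 8.079e-10). With library size alone it was smaller, at -0.84 on TC and -0.71 on noTC dishes. Herpud1, which recruits the degradation complex of the ER membrane, changed by -0.10 ± 0.08 in GM-TC (not called), 0.25 ± 0.07 in GM-noTC, -0.36 ± 0.08 for M-TC and -0.26 ± 0.08 for M-noTC. With library size alone the GM-TC value was -0.58 and was called. The GM-noTC value was -0.26 with library size alone and 0.18, not called, without GM-noTC-LPS replicate 1, and the M-noTC value was -0.13 and not called without M-noTC-LPS replicate 2.

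**Figure D2:**
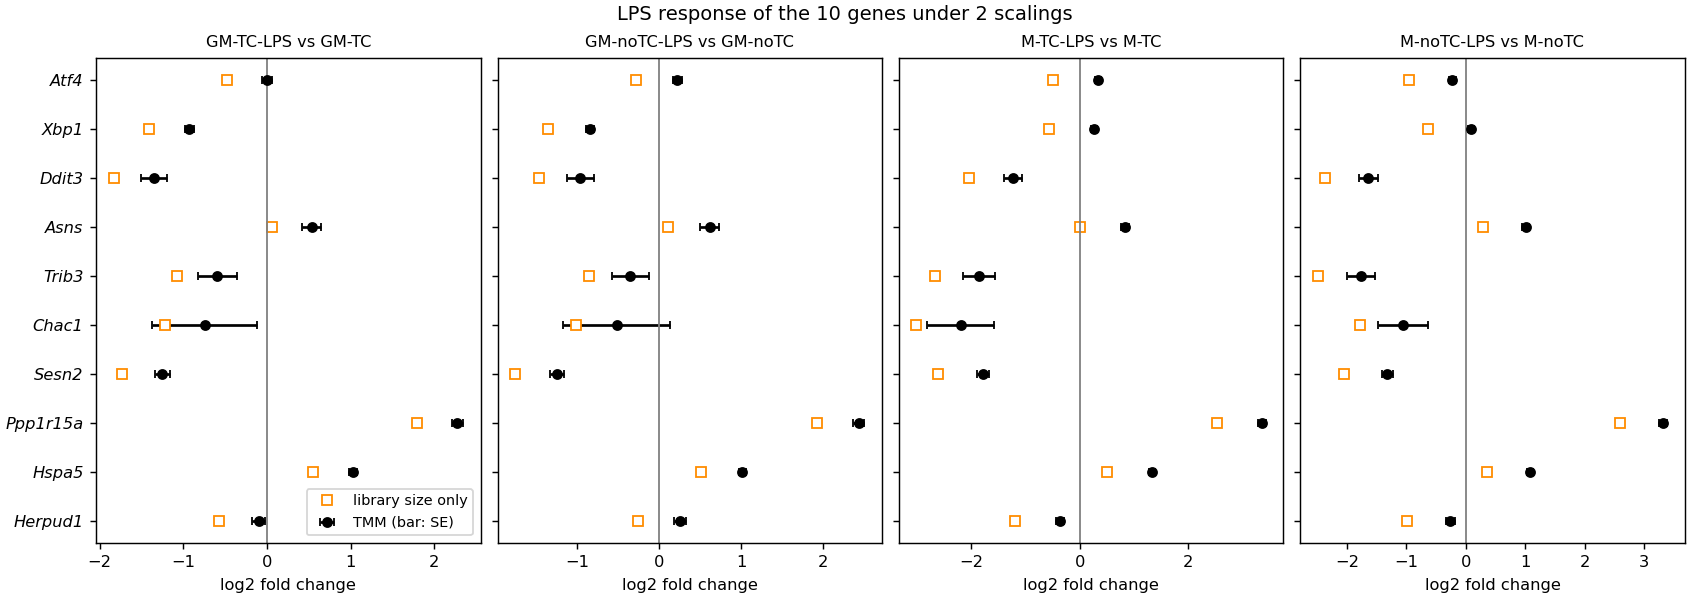
Log2 fold changes upon LPS of the 10 genes in the 4 cultures, with TMM scaling (circles, bars give SE) and with library size alone (squares). Ppp1r15a and Hspa5 stay right of 0 and Sesn2 and Ddit3 left of 0 under both, while Atf4 crosses 0 in GM-noTC and M-TC.

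In counts, LPS raised 3 and lowered 4 of the 10 genes in GM-TC, where 32.8% of all tested genes were called higher and 34.2% lower. It raised 5 and lowered 3 in GM-noTC (33.6% and 34.0% of all genes), raised 5 and lowered 5 in M-TC (37.6% and 36.4%), and raised 3 and lowered 6 in M-noTC (36.4% and 35.9%). With library size alone the counts were 2 higher and 6 lower, 2 and 6, 2 and 7, and 3 and 7. That scaling called 17.2% of all genes higher and 62.7% lower for GM-TC, 16.4% and 63.8% for GM-noTC, 16.3% and 69.1% for M-TC, and 16.1% and 68.5% for M-noTC.

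The second comparison was of GM with M cells, each on the same dish and with the same treatment. The gene that separated them was Asns. GM libraries held 5.71 and 5.96 CPM (GM-TC), 3.95 and 4.77 CPM (GM-noTC), 8.58 and 8.36 CPM (GM-TC-LPS) and 6.73 and 6.71 CPM (GM-noTC-LPS). M libraries held 23.1 and 22.4 CPM (M-TC), 41.1 and 43.1 CPM (M-noTC), 39.8 and 41.2 CPM (M-TC-LPS) and 86.6 and 82.7 CPM (M-noTC-LPS). In the order of the 8 groups only M-TC-LPS and M-noTC overlapped. Asns was lower in GM by log2 differences of -1.96 ± 0.09 (TC), -3.27 ± 0.09 (noTC), -2.26 ± 0.09 (TC-LPS) and -3.65 ± 0.08 (noTC-LPS), the last an 0.0794-fold level, with edgeR adjusted p-values from 2.957e-14 to 7.055e-20. Sesn2 went the opposite way and was higher in GM in the 4 comparisons, by 0.59 ± 0.08, 0.73 ± 0.08, 1.12 ± 0.12 and 0.79 ± 0.11 in the same order. The calls of both genes held under every alternative fit with the same threshold. Sesn2 was higher by 0.28, 0.44, 1.16 and 0.72 with library size alone, and only its TC-LPS difference reached a fold of 2.

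Other members differed between growth factors in ways that depended on LPS. Xbp1 was higher in GM at steady state, by 0.43 ± 0.05 on TC and 0.62 ± 0.05 on noTC dishes, and lower in GM upon LPS, at -0.76 ± 0.05 and -0.31 ± 0.05. Ppp1r15a followed the same order, with 0.53 ± 0.07 and 0.67 ± 0.07 at steady state and -0.55 ± 0.06 and -0.20 ± 0.06 upon LPS, of which the last was not called without GM-noTC-LPS replicate 2 (-0.18) or without M-noTC-LPS replicate 2 (-0.17). Hspa5 did not pass the test at steady state, with -0.03 ± 0.05 and -0.05 ± 0.05. Upon LPS it was lower in GM, at -0.34 ± 0.05 on TC dishes and -0.11 ± 0.05 on noTC dishes, a call lost in 8 alternatives. Herpud1 was higher in GM by 0.55 ± 0.07 (noTC), 0.37 ± 0.08 (TC-LPS) and 1.07 ± 0.08 (noTC-LPS), and was not called on TC at steady state (0.11 ± 0.07). Scaling to library size alone moved the median of all genes by -0.29 in both steady state comparisons. With it, Hspa5 was called lower in GM at steady state on both dishes (-0.34 each), and on TC dishes Herpud1 was at -0.21 and Atf4 at -0.13.

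Trib3 was not called between GM-TC and M-TC (0.34 ± 0.21), was lower in GM-noTC than in M-noTC (-0.60 ± 0.19) and was higher in GM upon LPS, by 1.60 ± 0.31 on TC and 0.81 ± 0.27 on noTC dishes. Only the TC-LPS call held under every alternative. On noTC dishes the steady state difference was -0.56 without GM-noTC replicate 1 and -0.39 without M-noTC replicate 2, not called in either case (adjusted p = 0.06266 and 0.1926). DESeq2 gave adjusted p = 0.07915 at steady state and 0.05117 upon LPS on noTC dishes, and the latter difference was 0.74 without GM-noTC-LPS replicate 2 and 0.70 without M-noTC-LPS replicate 2. Chac1 was lower in GM-noTC than in M-noTC, at -2.14 ± 0.45 (9 and 10 counts against 62 and 54), a call that held under every alternative. It was lower in GM-noTC-LPS than in M-noTC-LPS, at -1.60 ± 0.60, a call lost with DESeq2 (adjusted p = 0.05039), without GM-noTC-LPS replicate 1 (-1.28) and without M-noTC-LPS replicate 1 (-1.33). Atf4 was lower in GM-noTC than in M-noTC (-0.33 ± 0.06). Its other differences were at most 0.18 in size and those called were lost or reversed in 4 or 5 alternatives. The reversal was in GM-TC against M-TC, where Atf4 was called higher with TMM and lower with library size alone (-0.13, edgeR adjusted p = 0.0464). In all, 4 genes were called higher and 1 lower in GM on TC dishes (32.6% and 28.9% of all genes), 4 and 5 on noTC dishes (31.4% and 30.7%), 3 and 5 on TC dishes upon LPS (33.9% and 32.9%), and 3 and 5 on noTC dishes upon LPS (33.5% and 32.6%). With library size alone the TC count was 3 higher and 5 lower, where that scaling called 19.6% of all genes higher and 50.8% lower.

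**Figure D3:**
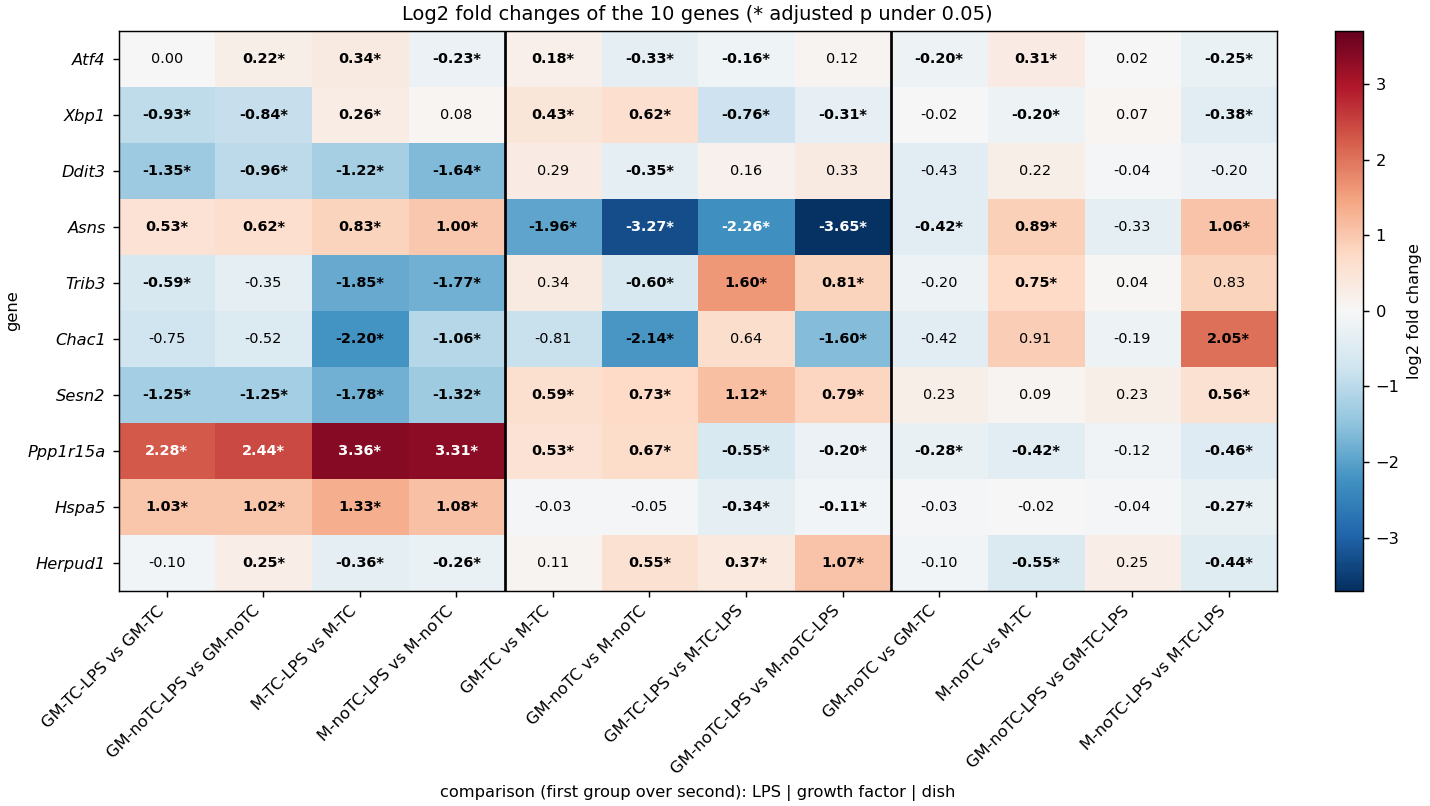
Log2 fold change of each gene (rows) in the 12 comparisons of 2 groups (columns), from lower (blue) to higher (red), with an asterisk where edgeR called it. Asns is at -1.96 or lower in each comparison of GM with M, and Ppp1r15a at 2.28 or higher in each comparison with LPS.

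The third comparison was of noTC with TC dishes. In M cells at steady state, noTC dishes raised Asns, Atf4 and Trib3 and lowered Herpud1, Ppp1r15a and Xbp1. These are 3 of 10 in each direction, beside 16.1% of all genes called higher and 11.1% called lower. Asns rose from 23.1 and 22.4 CPM to 41.1 and 43.1 CPM (1.86-fold, log2 0.89 ± 0.07, edgeR adjusted p = 2.438e-09). Atf4 rose from 119.8 and 115 CPM to 142 and 149.8 CPM (1.24-fold, adjusted p = 2.859e-04). Trib3 rose by 0.75 ± 0.20, which was lost with DESeq2 (adjusted p = 0.08112), without M-TC replicate 2 (0.56) and without M-noTC replicate 2 (0.52). Herpud1 fell from 54.4 and 60.2 CPM to 39.7 and 38.8 CPM (0.685-fold, adjusted p = 7.067e-06), Ppp1r15a from 25.1 and 22.8 CPM to 17.8 and 18.0 CPM (0.749-fold, adjusted p = 2.455e-04) and Xbp1 from 208 and 209.8 CPM to 182 and 182 CPM (0.871-fold, adjusted p = 0.004558). Hspa5 did not pass the test (0.989-fold), nor did Ddit3, Chac1 and Sesn2. In these libraries the muscle markers summed to 90.1 and 51.5 CPM on TC and to 0.420 and 0.381 CPM on noTC dishes.

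Upon LPS the same dishes differed in 8 of the 10 genes. Asns was 2.09 times higher on noTC dishes, at 86.6 and 82.7 CPM against 39.8 and 41.2 CPM (log2 1.06 ± 0.07, edgeR adjusted p = 2.361e-10). Sesn2 was 1.47 times higher, at 7.70 and 6.84 CPM against 4.87 and 4.998 CPM (adjusted p = 0.002947). Chac1 was higher by 2.05 ± 0.66 on the log2 scale, with 18 and 13 counts against 5 and 2. That call was lost without M-TC-LPS replicate 1 (2.70), M-TC-LPS replicate 2 (1.65) or M-noTC-LPS replicate 1 (1.78). The genes lower on noTC dishes were Herpud1 (0.736-fold), Ppp1r15a (0.725-fold), Xbp1 (0.769-fold), Hspa5 (0.832-fold) and Atf4 (0.839-fold), against 10.4% of all genes called higher and 12.9% lower. Of these, Atf4 was not called without M-TC-LPS replicate 1 (-0.22). Atf4 thus stood higher on noTC dishes before LPS and lower after it. These 2 dish differences differed from each other (edgeR interaction -0.57 ± 0.08, adjusted p = 8.697e-05), which does not test the change of sign itself. Macrophage markers summed to 19543 and 20345 CPM in M-noTC-LPS and to 23919 and 22931 CPM in M-TC-LPS.

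In GM cells the dish moved these genes little. At steady state, 3 genes were lower on noTC dishes, namely Ppp1r15a (0.824-fold, edgeR adjusted p = 0.02087), Asns (0.749-fold, adjusted p = 0.03607) and Atf4 (0.871-fold, adjusted p = 0.04116), with 2.85% of all genes called lower and 4.69% higher. These calls were lost in 4, 5 and 15 alternatives, and a fit restricted to the GM-TC and GM-noTC libraries called 0 of the 3. Without GM-TC replicate 1, Ppp1r15a was at -0.17, without GM-noTC replicate 1 Asns was at -0.30, and without GM-TC replicate 2 Atf4 was at -0.12 on the log2 scale. Upon LPS none of the 10 was called by edgeR (3 had an unadjusted p under 0.05, and 0 were called by DESeq2), with 2.08% of all genes called higher and 0.727% lower. In the direct test of GM against M, the dish difference of Asns was lower in GM, at -1.31 ± 0.14 at steady state (edgeR adjusted p = 1.166e-06) and -1.40 ± 0.13 upon LPS (adjusted p = 2.071e-07). Among the other genes called, Atf4 differed at steady state (-0.51 ± 0.08, adjusted p = 2.205e-04), and Herpud1 (0.69 ± 0.11, adjusted p = 2.189e-04) and Xbp1 (0.45 ± 0.07, adjusted p = 2.469e-04) upon LPS. The remaining calls of this test, of other genes and of these genes in the other state, are given further below. The GM and M dish differences use no library in common, whereas the comparisons by dish, by growth factor and by LPS share groups and are not independent of each other.

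In counts, the LPS response was higher in GM than in M for 2 of the 10 genes and lower for 4 on TC dishes (17.8% and 23.3% of all genes), and higher for 4 and lower for 3 on noTC dishes (16.9% and 19.3%). In M cells it was lower on noTC than on TC dishes for Atf4 and Hspa5 and higher for none by edgeR (7.48% of all genes lower and 3.11% higher), and in GM none of the 10 was called (0.591% and 0.192%). The dish difference was higher in GM than in M for 1 gene and lower for 4 at steady state (4.82% and 6.40% of all genes), and higher for 5 and lower for 1 upon LPS (6.87% and 3.71%).

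Other genes of these pathways were read from 8 lists. Of 17 tested genes of amino acid synthesis and transport, 11 were higher and 0 lower in M-noTC than in M-TC, with a median log2 difference of 0.63 beside 0.01 over all genes. Of all genes, 16.1% were called higher and 11.1% lower in that comparison. Psat1, an enzyme of serine synthesis, rose by 1.22 and Slc7a5, the large neutral amino acid transporter, by 1.05. Of 12 cytosolic tRNA synthetases 9 were higher and 0 lower (median 0.32), with Yars1 at 0.41 and Iars1 at 0.32. Upon LPS 10.4% of all genes were called higher and 12.9% lower. The counts of these 2 lists were then 11 higher and 3 lower of 17, and 11 higher and 0 lower of 12. The 3 lower were Slc7a11 (-1.41), the cystine transporter, Slc3a2 (-0.28), its partner chain, and Slc38a2 (-0.20), a glutamine transporter. These 3 were named for this comparison after their values were seen. With library size alone the amino acid list had 9 higher and 0 lower at steady state and 11 and 2 upon LPS. The tRNA synthetases then had 9 and 0, and 11 and 0. Shares of all genes were not counted for the dish under that scaling, and the shares above are those with TMM.

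The next counts are to be read beside those of all genes in M-noTC against M-TC. These were 16.1% higher and 11.1% lower at steady state, and 10.4% and 12.9% upon LPS. Of 20 ER chaperones and folding enzymes 1 was higher and 1 lower in M-noTC at steady state (Ero1a at 0.28, an oxidase of the ER, and Dnajb9 at -0.32, a cochaperone of BiP). Upon LPS 1 was higher and 6 lower. Of 19 genes of ER-associated degradation 1 was higher and 1 lower at steady state and 1 and 3 upon LPS, with Selenos at -0.38 in the latter. Genes of ER translocation and secretion numbered 4 higher and 1 lower of 18 at steady state and 0 and 4 upon LPS, where Serp1 stood at -0.40. The eIF2 kinases, sensors and eIF2B subunits (16 genes) had 4 higher and 0 lower at steady state and 0 called upon LPS by edgeR. Transcription factors of the stress response (9 genes) had 1 higher and 3 lower, and 0 and 4 upon LPS, with Nupr1 (-0.44 and -0.25) and Nfe2l2 (-0.26 and -0.54), a regulator of the oxidant response, lower both times. Stress-induced regulators of growth and death (15 tested) had 2 higher and 4 lower, and 1 and 5. With library size alone the counts upon LPS were 4 higher and 2 lower for these regulators and 3 and 0 for the sensors. The transcription factors had 0 and 2, the secretory genes 0 and 1, the chaperones 2 and 4, and ER-associated degradation 1 and 2. At steady state that scaling gave 2 and 5 for the regulators and 2 and 0 for the sensors. It gave 1 and 2 for the chaperones and for ER-associated degradation. The shares of all genes in this paragraph are those with TMM, and none were counted for the dish with library size alone. In GM the dish changed few genes of any list, at most 3 higher or 1 lower in a list at steady state and 1 upon LPS. Of all genes in GM, 4.69% were called higher and 2.85% lower at steady state, and 2.08% and 0.727% upon LPS.

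**Figure D4:**
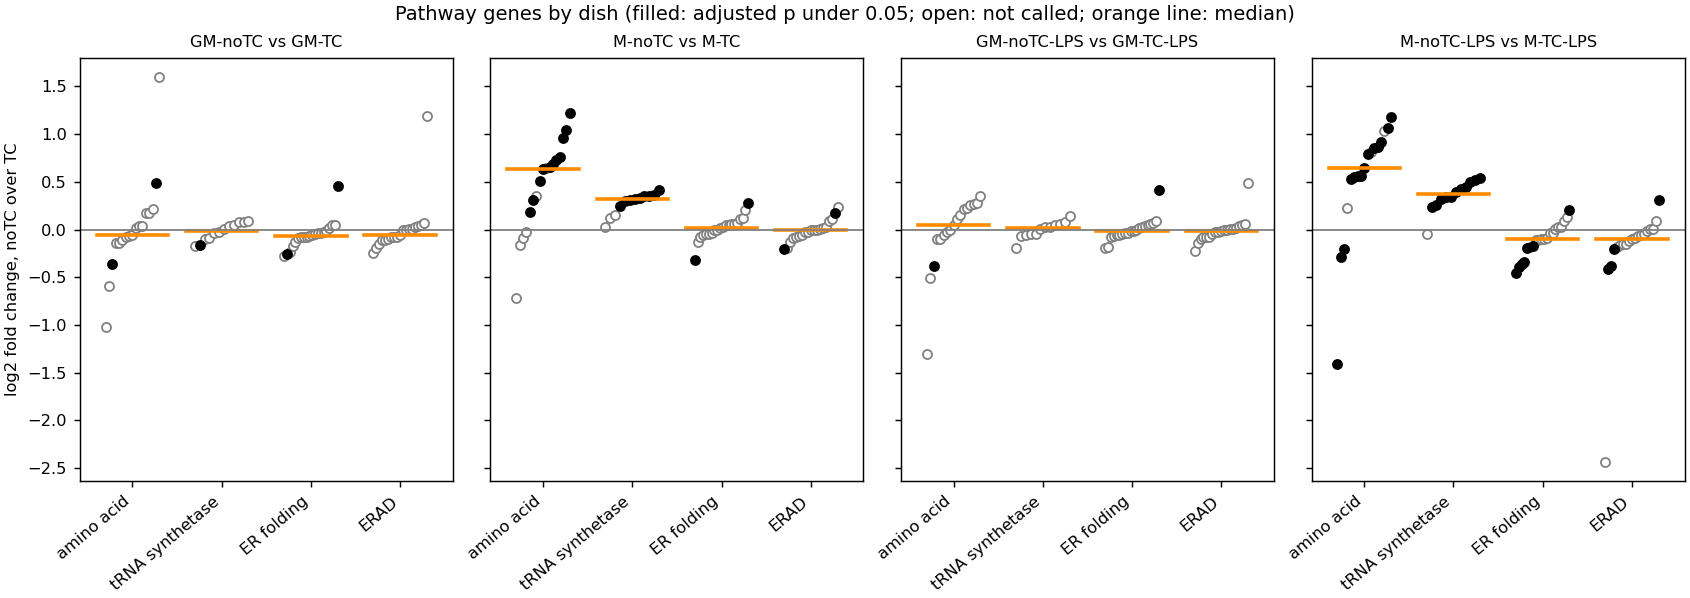
Log2 fold change of noTC over TC for the genes of 4 pathway lists in the 4 dish comparisons, with filled points for genes called by edgeR and an orange line at the list's median. In M cells the amino acid and tRNA synthetase genes lie mostly above 0 (medians 0.63 and 0.32 at steady state), while the 2 ER lists lie around 0, as do the 4 lists in GM cells.

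Upon LPS each of the 8 lists held genes called higher and genes called lower, except the ER-associated degradation list in GM. The counts are to be read beside those of all genes, of which 32.8% were higher and 34.2% lower for GM-TC, 33.6% and 34.0% for GM-noTC, 37.6% and 36.4% for M-TC, and 36.4% and 35.9% for M-noTC. Taking GM cells first and TC dishes before noTC dishes, the sensors had 6 higher and 7 lower, 5 and 5, 5 and 6, and 4 and 7 of 16. The transcription factors had 5 and 3, 5 and 2, 6 and 2, and 6 and 2 of 9, and the amino acid genes 8 and 5, 9 and 5, 8 and 5, and 9 and 3 of 17. The tRNA synthetases had 3 and 4, 5 and 3, 8 and 2, and 9 and 2 of 12, the secretory genes 7 and 6, 7 and 4, 14 and 1, and 12 and 3 of 18, and the growth and death regulators 5 and 5, 4 and 8, 7 and 5, and 6 and 5 of 15. With library size alone the counts were 2 and 11, 2 and 11, 3 and 13, and 3 and 13 for the sensors, 2 and 4, 4 and 4, 3 and 5, and 2 and 5 for the transcription factors, and 4 and 7, 5 and 7, 6 and 9, and 5 and 7 for the amino acid genes. They were 1 and 9, 1 and 10, 1 and 11, and 1 and 10 for the tRNA synthetases, 2 and 13, 2 and 14, 3 and 12, and 4 and 13 for the secretory genes, and 4 and 7, 4 and 10, 5 and 6, and 6 and 7 for the growth and death regulators, a scaling under which 16.1% to 17.2% of all genes were called higher and 62.7% to 69.1% lower. Among the sensors, Eif2ak2 (PKR), which is also induced by interferon, rose by 2.38 to 2.86 over the 4 cultures, and Ppp1r15b, the constitutive counterpart of Ppp1r15a, by 1.40 to 2.30. Eif2ak3 (PERK) fell, at -2.55 to -1.498, and so did Ern1 (IRE1), at -0.96 to -0.74. Nupr1 (1.97 to 2.40) and Atf3 (0.58 to 2.54) rose, while Creb3l2 (-1.94 to -1.37) and Cebpg (-1.11 to -0.76), a dimer partner of ATF4, fell. Slc7a11 rose by 3.64 to 5.02 and Slc3a2 by 0.85 to 2.16, whereas Slc38a2 (-1.71 to -0.43) and Aldh18a1 (-1.19 to -0.43), the first enzyme of proline synthesis, fell. Wars1, the tryptophanyl-tRNA synthetase, rose by 1.19 to 2.01 and Eprs1 by 0.39 to 0.50, whereas Mars1 (-0.49 to -0.24) and Sars1 (-0.46 to -0.14) fell. Cdkn1a (p21) rose by 1.46 to 4.67 and Sesn1, the paralogue of Sesn2, fell, at -4.91 to -3.30.

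Of the ER-associated degradation genes, 10 of 19 were higher and 0 lower for GM-TC, 10 and 0 for GM-noTC, 12 and 1 for M-TC, and 10 and 3 for M-noTC. Of all genes, 32.8% to 37.6% were called higher and 34.0% to 36.4% lower in these cultures. Syvn1, the ubiquitin ligase of that pathway, rose by 0.75 to 1.25 and Herpud2, the paralogue of Herpud1, by 0.66 to 1.24. These list counts depended on the scaling, since with library size alone they were 3 higher and 12 lower, 4 and 13, 1 and 14, and 1 and 15. That scaling called 16.1% to 17.2% of all genes higher and 62.7% to 69.1% lower. The 20 chaperones numbered 9 higher and 6 lower, 8 and 4, 12 and 5, and 11 and 6 with TMM, and 0 and 18, 0 and 18, 1 and 19, and 1 and 19 with library size alone. With TMM, Ero1a (0.42 to 0.99) and Dnajb11 (0.37 to 0.55) rose, whereas Pdia4 (-0.41 to -0.19) and Sdf2l1 (-0.40 to -0.26) fell.

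Between growth factors the amino acid list had more genes lower than higher in GM, with 4 higher and 9 lower of 17 on TC, 3 and 10 on noTC, 5 and 8 on TC-LPS and 6 and 10 on noTC-LPS. Of all genes, 32.6% were higher and 28.9% lower on TC, 31.4% and 30.7% on noTC, 33.9% and 32.9% on TC-LPS, and 33.5% and 32.6% on noTC-LPS. The list had 3 higher and 11 lower, 3 and 13, 5 and 8, and 6 and 10 with library size alone, and all genes had 19.6% and 50.8%, 19.7% and 52.1%, 35.5% and 31.3%, and 29.7% and 36.4%. Psat1 was lower in GM, at -1.62 to -0.25, as was Slc7a1, the arginine and lysine transporter, at -1.41 to -0.44, whereas Slc7a11 was higher by 1.73 to 3.12 and Slc1a5, the glutamine transporter, by 0.75 to 1.37. Of the 12 tRNA synthetases 2 were higher and 4 lower in GM on TC dishes (median -0.08). On noTC dishes 0 were higher and 10 lower, and on TC-LPS 1 and 8. All 12 were lower in GM-noTC-LPS than in M-noTC-LPS (median -0.70). With library size alone the counts were 0 and 11, 0 and 12, 1 and 8, and 0 and 12 in the same order. Cars1 was lower in the 4 comparisons (-1.26 to -0.26). Of 20 ER chaperones 13 were higher and 0 lower in GM on TC, 12 and 1 on noTC, 8 and 4 on TC-LPS and 12 and 2 on noTC-LPS, and with library size alone these counts were 5 and 7, 5 and 7, 8 and 4, and 10 and 5. The chaperones higher in GM were led by Pdia4 (1.28 to 1.497) and Ero1a (0.56 to 1.27). Hyou1 (-0.47 to -0.07) and Pdia3 (-0.25 to 0.0084) were each called lower in GM in 2 comparisons. Atf5 (0.69 to 1.13) and Cebpb (0.91 to 2.06) were higher in GM in the 4 comparisons, and Nupr1 (-0.61 to -0.20) was lower in the 4.

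For the genes other than Ddit3, the tested genes with the most similar pattern over the 8 group means were found by the root mean square difference of centred log2(CPM + 0.5), a description with no test. Those nearest to Asns were Psd3 (0.29), Pcsk1 (0.32) and Dner (0.35), to Ppp1r15a Zhx2 (0.15), Slamf7 (0.17) and Sbds (0.17), and to Sesn2 Polk (0.12), Agap2 (0.12) and Zfp958 (0.14). Those of Hspa5 were Zfp131 (0.05), Ccdc6 (0.06) and Ppm1b (0.07), those of Herpud1 Fam8a1 (0.12), Satb1 (0.12) and Prr3 (0.13), and those of Xbp1 Luzp1 (0.13), Sik2 (0.14) and Stk10 (0.14). Trib3 was nearest to Gm49384 (0.14), Zfp623 (0.17) and Gid4 (0.17). Chac1 was nearest to Klhl23 (0.15), Ccdc15 (0.16) and Cenph (0.16), and Atf4, which hardly varied, to Exosc3 (0.06), Cdca4 (0.06) and Ccl25 (0.07). No member was among the 3 nearest genes of another. The closest pair among the 10 was Ddit3 and Trib3 (0.35), and the member nearest to Asns was Chac1 at 1.27. Group means of Chac1 were 0.181 to 1.67 CPM, so the 0.5 added before the logarithm flattens its pattern and affects its distances.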

How the data were processed

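The authors trimmed reads and deposited 1 table of gene-level expected counts (RSEM) for 16 libraries. The submitters' processing notes name fastp 0.18.0, Bowtie2 2.2.8, HISAT2, StringTie 1.3.1, RSEM, DESeq2 and edgeR, and the genome build and the strand setting are not given in the sources used here. The mRNA was enriched on oligo(dT) beads and libraries were made with a NEBNext Ultra RNA kit. Of the deposited expected counts 6.56% to 8.19% per library were not whole, and they were rounded.

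Genes were filtered with filterByExpr, scaled by TMM and tested by the quasi-likelihood test of edgeR 4.0.16 (R 4.3.3) over all 16 libraries with 8 groups, 12 comparisons of 2 groups and 6 interactions. A gene was called at a Benjamini-Hochberg adjusted p under 0.05. The SE is the log2 fold change divided by the square root of F. With 2 libraries against 2, an exact permutation test cannot go below p = 0.333 and was not used for single genes. Alternatives were DESeq2 size factors, library size only, no filter, a fit to the libraries compared, DESeq2 1.42.0, a fold change over 2 with an unadjusted p under 0.05 (a threshold of the study), the replicate number as a block, taking from each noTC library without LPS a share of the other libraries' mean (0.675% in GM and 0.600% in M, the median excess of noTC over TC in genes nearly absent on TC), and leaving out each library. The fits were tested on simulated data. Counting error is the only error that the floor of 3 counts covers.

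The 10 genes, the 8 pathway lists and the 7 marker lists were chosen with earlier results of these data known. From each pathway list and factor, up to 2 genes per direction were named, ranked by the number of the 4 comparisons that called them in that direction (at least 2) and then by the size of the median change. A named gene had at least 1 CPM in the mean of all libraries. Counts of a list are given over its genes that passed the filter (17 of 19 amino acid genes, 18 of 19 secretory genes and 15 of 16 growth and death regulators). Nupr1 stands in 2 lists. A second deposited row with the symbol Ddit3 held 0 counts and was not used. Markers of fibroblasts, neutrophils, lymphocytes, dendritic cells, and mast and erythroid cells summed to at most 58.5 CPM in any library. Positions and promoter windows come from RefSeq and GENCODE vM21 (GRCm38). The genes most similar to Ddit3 are not reported here.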

Additional observations from a re-analysis of the deposited data

Results flagged for a closer look

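The effects that differed between groups by a test of the difference itself (edgeR interaction, adjusted p under 0.05) numbered 26, and each is given as a log2 difference. In the response to LPS on TC dishes, GM minus M was -0.34 for Atf4, -1.19 for Xbp1, -0.31 for Hspa5, 1.26 for Trib3, -1.08 for Ppp1r15a and 0.53 for Sesn2. These are 2 higher and 4 lower, beside 17.8% and 23.3% of all genes. On noTC dishes it was 0.45 for Atf4, 0.68 for Ddit3, -0.93 for Xbp1, 1.41 for Trib3, -0.39 for Asns, 0.51 for Herpud1 and -0.87 for Ppp1r15a, beside 16.9% of all genes higher and 19.3% lower. Xbp1, Trib3 and Ppp1r15a were thus found on both dishes with the same sign, and Atf4 with opposite signs.

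In the response to LPS in M cells, noTC minus TC was -0.57 for Atf4 and -0.25 for Hspa5, beside 3.11% of all genes higher and 7.48% lower. In GM cells none of the 10 was called by edgeR (2 at an unadjusted p under 0.05, 0 by DESeq2), beside 0.192% and 0.591%.

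For the dish difference at steady state, GM minus M was -0.51 for Atf4, -0.64 for Ddit3, -0.95 for Trib3, -1.31 for Asns and 0.45 for Herpud1, beside 4.82% of all genes higher and 6.40% lower. Upon LPS it was 0.27 for Atf4, 0.45 for Xbp1, 0.22 for Hspa5, -1.40 for Asns, 0.69 for Herpud1 and 0.35 for Ppp1r15a, beside 6.87% and 3.71%. Of the 26, 14 held in every alternative that kept the threshold of an adjusted p under 0.05, among them Asns for both dish differences, Xbp1, Ppp1r15a and Sesn2 in the LPS response on TC, and Herpud1 in the dish difference upon LPS. For Sesn2 and Herpud1 the difference did not reach a fold of 2. Leaving out 1 library ended the call of 10 of the other 12. Asns in the LPS response on noTC dishes was lost in 9 alternatives, among them library size alone (-0.17, adjusted p = 0.3324) and without GM-noTC replicate 2 (-0.23, adjusted p = 0.3638). Ddit3 in that response was at 0.47 without GM-noTC-LPS replicate 2, 0.54 without M-noTC-LPS replicate 1, 0.63 without GM-noTC replicate 1 and 0.67 without M-noTC replicate 2, not called in any of these. Trib3 on TC dishes was at 1.06 without M-TC replicate 1. Where leaving out 1 library ended its call, Hspa5 in M, noTC minus TC, was at -0.25 to -0.21. Calls of dish differences lost by leaving out 1 library are given with their values then. At steady state these were Ddit3 (-0.71 to -0.58), Trib3 (-0.999 to -0.72) and Herpud1 (0.37, without M-TC replicate 2). Upon LPS they were Atf4 (0.22 to 0.29), Hspa5 (0.17 to 0.25) and Ppp1r15a (0.31 to 0.32). With library size alone, Atf4 was at 0.0099 and Hspa5 at 0.040 in the LPS response on TC dishes. That scaling also ended the calls upon LPS of the dish differences of Atf4 (0.17), Hspa5 (0.12) and Ppp1r15a (0.24). It ended the call of Hspa5 in M, noTC minus TC, as well (-0.15). Groups of 2 libraries were too small for a test of single outlying libraries.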

How the results depend on the processing

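Of 81 calls of the 10 genes in the 12 comparisons, 56 held in every alternative that kept the threshold of an adjusted p under 0.05, as did 14 of 26 interactions. The fold over 2 is counted apart, below. Leaving out 1 library at a time gave 2880 single values, of which 2757 kept direction and call, 107 lost and 16 gained the call, and 0 reversed. With library size alone, 10 values reversed, since that scaling moved the median of all genes. Upon LPS, Atf4 was at -0.48 in GM-TC, -0.29 in GM-noTC and -0.49 in M-TC, Xbp1 at -0.57 for M-TC and -0.64 for M-noTC, and Herpud1 at -0.26 in GM-noTC. Between GM-TC and M-TC, Atf4 was at -0.13 and Herpud1 at -0.21, and in the LPS response on TC, GM minus M, Atf4 was at 0.0099 and Hspa5 at 0.040. With 2 libraries a group, and 2 to 62 counts of Chac1 in a library, depth and number limit small differences.

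Counts of genes called also moved, and except where stated the cause was not tested. Among the alternatives, shares of all genes were counted only with library size alone, upon LPS and for GM against M, as given above. In every other setting and comparison, here and in the next paragraph, the counts have no such share beside them. Whether they differ from those of all genes there was not tested. A fold over 2 with an unadjusted p removes small changes by its construction. It left upon LPS 2 lower in GM-TC, 2 higher and 1 lower in GM-noTC and 2 higher in M-TC. For GM against M it left 0 higher on TC, 0 higher and 2 lower on noTC, 1 lower on TC-LPS, and 1 higher and 2 lower on noTC-LPS. For the dish it left 0 lower in GM, 0 higher and 0 lower in M, and 0 lower in M upon LPS. For the LPS response, GM minus M, it left 1 higher and 2 lower on TC and 1 higher and 0 lower on noTC, and for noTC minus TC in M 0 lower. For the dish difference, GM minus M, it left 0 higher and 1 lower at steady state and 0 higher and 2 lower upon LPS. Library size alone gave upon LPS 2 higher and 6 lower in GM-noTC and 2 higher in M-TC, 5 lower in GM-TC against M-TC, 2 lower for the LPS response GM minus M on TC, 1 higher and 1 lower for noTC minus TC in M, and 2 higher for the dish difference upon LPS. DESeq2 gave 3 lower in GM-noTC against M-noTC, 1 lower for the dish in GM, and 2 higher and 2 lower for the dish difference at steady state. A fit to the libraries compared gave 0 lower for the dish in GM, 1 higher for the dish in GM upon LPS, and 1 higher for the LPS response noTC minus TC in M. No filter gave 1 higher for the dish in GM upon LPS and 1 higher for the LPS response noTC minus TC in GM.

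Leaving out 1 library gave 0 to 1 higher for the dish in GM upon LPS, 0 to 1 higher for the LPS response noTC minus TC in GM, and 0 to 1 higher and 1 to 3 lower for that in M. It gave 2 to 5 higher for the dish difference, GM minus M, upon LPS, 0 to 2 higher and 2 to 4 lower for it at steady state, 0 to 3 lower for the dish in GM, 3 to 5 lower for GM-noTC against M-noTC and 3 to 5 lower for GM-noTC-LPS against M-noTC-LPS.

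Deviations of libraries that share a replicate number correlated at -0.064 to 0.036 over the 12 comparisons, so no common effect of the number was visible. Whether equal numbers mark a common animal or batch cannot be told from these values, since such an origin need not leave a visible effect. With the replicate number as a block, all 180 single values kept direction and call.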
